A study of Mus musculus with 12 samples.

Results

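The cell cycle and mitosis genes are 32 named genes of DNA replication, mitosis and the cyclins, out of 18193 genes that the array reads with a probe set carrying 1 gene symbol. Members were fixed by name, and every probe set annotated with exactly 1 of those symbols was taken. This gave 73 probe sets for 31 members, and cyclin B1 (Ccnb1) had no such probe set. The brightest probe set stood for each gene, and all 31 of these passed the filter on dim probe sets. RNA came from primary mammary epithelial cells of female mice of the inbred strain FVB/N, taken at 6 weeks of age, during puberty. The control group, 6 arrays, carried MMTV-rtTA alone, a transgene in which a mouse mammary tumor virus promoter drives a doxycycline-dependent activator, mainly in mammary epithelium. The p190B group, 6 arrays, carried MMTV-rtTA and TetO-p190B-IRES-luciferase, from which that activator switches on p190B RhoGAP, the product of Arhgap5, together with luciferase. Mice of both groups ate chow containing doxycycline at 2 g/kg for 7 days starting at 5 weeks, so the drug and rtTA were common to all 12 arrays. The labels call the arrays biological replicates and do not say whether an array held cells of 1 mouse or of a pool. The comparison asks how adding the inducible p190B transgene to MMTV-rtTA affects transcript levels under doxycycline.

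Cells copy their DNA in S phase and divide it in mitosis, and the transcripts of each phase are made in waves. The MCM helicase, the PCNA clamp and the enzymes that make deoxynucleotides belong to the earlier wave, which E2F factors switch on after cyclin D and cyclin E kinases inactivate the RB proteins. Genes of spindle assembly, the spindle checkpoint and chromosome segregation form the later wave, which B-MYB, FOXM1 and the MuvB complex drive through CHR elements, often beside CCAAT boxes bound by NF-Y. In the pubertal mammary gland proliferation is concentrated in the terminal end buds that lead ductal growth.

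Values were linear intensities, described below as intensity units, or log2(intensity + 16) where a difference or a spread is given. Array medians ran from 187.6 to 211.5 units, and the 2% trimmed mean was 1000.01 on every array. The keratins Krt8 (42125 ± 3298 units in control, SD, n = 6) and Krt14 (11044 ± 2548) marked luminal and basal epithelium, and all 14 luminal and all 10 basal markers that were read passed the filter. Markers of other cells were also present, with 11 of 11 macrophage, 9 of 9 fibroblast, 8 of 8 endothelial and 11 of 11 T and NK cell markers above the filter. The targeted gene, Arhgap5, was read by 4 probe sets with log2 differences (p190B minus control) of 0.41, -0.32, -0.14 and 0.10. The first 2 had unadjusted limma 95% intervals on opposite sides of 0, 0.17 to 0.66 and -0.62 to -0.02. Which part of the transcript each probe set reads was not given. None passed limma's test (adjusted p = 0.258, 0.491, 0.710 and 0.925), so p190B RNA was not shown to be raised. Any direction below therefore rests on the genotype labels. Before the results by gene, 3 arrays stood apart for the cell cycle genes: control replicate 2, control replicate 6 and p190B replicate 1 were low for nearly all of them.

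Promoters were examined as a feature of the S-phase and mitotic genes that the choice of members did not use. RefSeq promoter sequence (GRCm38.p6) was found for 24 of the 32 members, 25 promoters in all since Mcm7 has more than 1, and the 250 bases before each start were searched on both strands. The CHR was searched as TTTGAA and as its variant TTCGAA. The CCAAT box was searched by the letters of its name. For E2F the searched forms were TTCCCGC, then TTGGCGC, and also TTCGCGC. On its other strand the TTGGCGC motif ends in CCAA, so it can overlap a CCAAT box. A CHR match was present in 8 of 15 mitotic promoters (53.3%) and in 2 of 9 S-phase promoters (22.2%), against 17.1% of all 32851 promoters in the table and 12.4% of those of genes with a kept probe set. An E2F match was present in 4 of 9 S-phase promoters (44.4%) and 3 of 15 mitotic promoters (20%), against 6.69% of all promoters and 11.4% of those of genes with a kept probe set. The S-phase matches were in Mcm5, Mcm6 and both promoters of Mcm7. Those of Mcm2, Mcm3, Pcna, Rrm2 and Tyms held no E2F match. CCAAT matches were common to both classes, in 14 of 15 mitotic (93.3%) and 8 of 9 S-phase promoters (88.9%), against 33.8% of all promoters. At least 2 CCAAT matches lay in 66.7% of mitotic, 44.4% of S-phase and 10.1% of all promoters. Among replication genes that are not members, 48.1% of 27 promoters held E2F and 14.8% CHR, and among mitotic genes that are not members, 12.1% of 33 held E2F and 39.4% CHR. Such matches describe letters in a window and do not show that a factor binds.

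The next sequences show how the motifs are arranged in 2 S-phase and 3 mitotic members, each written 5′ to 3′ toward the start of the gene, with every match in capitals. Mcm5 (chr8:75109259-75109508, plus strand) and Mcm6 (chr1:128359706-128359955, minus strand) encode helicase subunits, and their capitals mark E2F motifs and CCAAT boxes on either strand. Among the members' promoters these held the most E2F matches, 3 in Mcm5 and 4 in Mcm6. The CCAAT box reads ATTGG on the other strand, and E2F motifs read GCGCCAA or GCGCGAA. The mitotic examples are Ccnb2 (chr9:70421555-70421804, minus strand), cyclin B2, Cdc20 (chr4:118437344-118437593, minus strand), the activator of the anaphase-promoting complex, and Plk1 (chr7:122159185-122159434, plus strand), Polo-like kinase. In these the capitals mark CHR elements (TTTGAA) and CCAAT boxes, and Plk1 held a CCAAT box alone.
Mcm5: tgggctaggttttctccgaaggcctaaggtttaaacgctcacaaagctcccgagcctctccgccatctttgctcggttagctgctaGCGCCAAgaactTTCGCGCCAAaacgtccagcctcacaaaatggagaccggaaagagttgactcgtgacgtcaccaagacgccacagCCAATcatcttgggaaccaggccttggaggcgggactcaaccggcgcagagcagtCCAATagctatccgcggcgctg
Mcm6: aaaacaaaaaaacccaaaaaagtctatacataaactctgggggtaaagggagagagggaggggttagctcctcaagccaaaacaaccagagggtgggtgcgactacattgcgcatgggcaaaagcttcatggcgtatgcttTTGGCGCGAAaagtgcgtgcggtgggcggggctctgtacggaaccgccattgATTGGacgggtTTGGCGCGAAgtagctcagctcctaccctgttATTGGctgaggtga
Ccnb2: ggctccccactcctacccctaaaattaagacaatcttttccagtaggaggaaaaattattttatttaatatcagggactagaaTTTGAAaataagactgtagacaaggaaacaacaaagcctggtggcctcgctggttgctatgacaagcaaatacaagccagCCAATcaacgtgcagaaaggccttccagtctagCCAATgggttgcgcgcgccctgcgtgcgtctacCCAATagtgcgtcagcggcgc
Cdc20: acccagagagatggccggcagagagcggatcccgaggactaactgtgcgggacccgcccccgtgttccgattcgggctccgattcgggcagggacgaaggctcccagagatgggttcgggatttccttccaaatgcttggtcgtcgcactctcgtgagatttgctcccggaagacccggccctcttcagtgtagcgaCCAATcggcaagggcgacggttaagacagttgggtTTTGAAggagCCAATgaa
Plk1: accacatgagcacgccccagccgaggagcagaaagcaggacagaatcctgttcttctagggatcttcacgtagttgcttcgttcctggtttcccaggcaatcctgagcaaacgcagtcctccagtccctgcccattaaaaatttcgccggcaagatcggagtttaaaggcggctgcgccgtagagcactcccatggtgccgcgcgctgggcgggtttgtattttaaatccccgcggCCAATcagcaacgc

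Cell cycle genes varied more between arrays of the same genotype than between genotypes, and most of them varied together. For each array the members were averaged after centring every gene on its mean over the 12 arrays. On this log2 scale the member mean ran from -0.79 (replicate 2) to 0.20 (replicate 1) in control and from -0.50 (replicate 1) to 0.71 (replicate 2) in p190B. The lowest and highest arrays were 1.50 log2 units apart, or 2.83-fold. The genotype means were -0.14 ± 0.41 and 0.14 ± 0.41 (SD, n = 6 each), and the groups overlapped. In a bulk preparation, fewer cycling cells and less of these RNAs per cycling cell cannot be told apart.

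The same few arrays set both ends for most genes. Control replicate 2 was among the 3 lowest arrays for 29 of 31 members, p190B replicate 1 for 28 and control replicate 6 for 26, against 33.5%, 30.7% and 28.5% of the 12770 named genes kept. Control replicate 2 was the lowest of all for 22 members (12.8% of named genes). At the other end, p190B replicate 2 was the highest array for 25 members (11.2% of named genes), and p190B replicate 6 was among the 3 highest for 23 (23.8% of named genes). The remaining arrays lay between these ends for most members, which leaves a low set drawn from both genotypes. A range of at least 2-fold from the lowest to the highest array was seen for 26 of 31 members, against 21.6% of named genes.

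**Figure D1:**
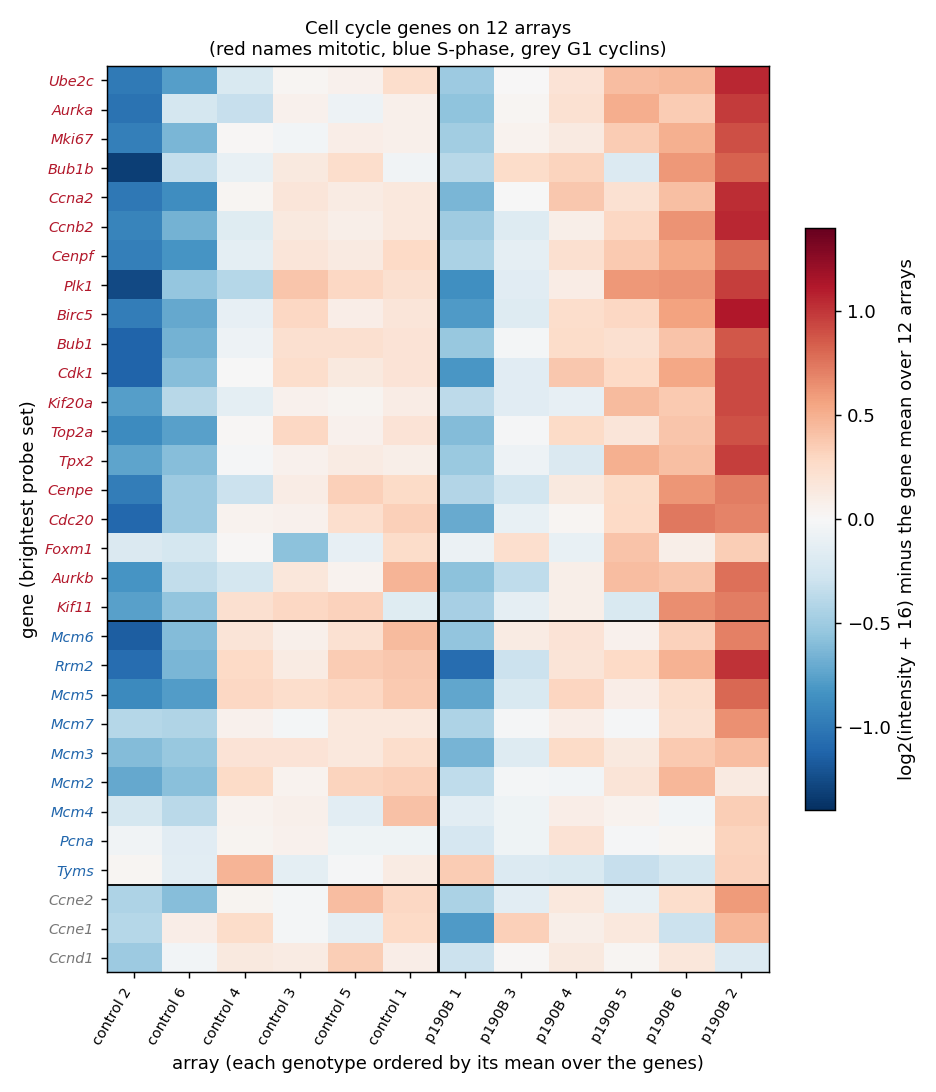
Heat map of the 31 cell cycle genes (vertical axis) on the 12 arrays (horizontal axis, ordered within each genotype by the member mean), with color giving log2(intensity + 16) minus the gene's mean over all arrays. Control replicates 2 and 6 and p190B replicate 1 form low columns through nearly all genes, and p190B replicate 2 is the highest column for 25 of 31.

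Among the mitotic genes, the proliferation marker Mki67, which coats mitotic chromosomes, read at 1121 units in the lowest control array, 2175 at the control median and 2337 in the highest. In p190B its lowest, median and highest values were 1562, 2595 and 4106 units. Thus 4 of 6 p190B arrays exceeded all controls, while the lowest p190B array lay below most controls. Top2a, the topoisomerase that untangles replicated chromosomes, ran from 1331 through a median of 2524 to 3010 units in control and from 1607 through 2859 to 4582 in p190B. Its groups overlapped more, with 2 of 6 p190B arrays above all controls. Cdk1, the kinase that drives entry into mitosis, had a control median of 2281 units (994 to 2585) and a p190B median of 2728 (1227 to 4144). Its partners were alike in shape: Ccna2, cyclin A2, spanned 629 to 1432 units in control and 812 to 2617 in p190B. Ccnb2 spanned 923 to 1960 units in control and 1248 to 3698 in p190B. For each of these genes the lowest array was control replicate 2 and the highest p190B replicate 2.

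The kinases and checkpoint proteins of the spindle included the member with the widest spread. Plk1, which acts at spindle poles and kinetochores, ran from 106.3 units through a median of 267.3 to 368 in control and from 146 through 366.5 to 557.3 in p190B. Its SD over the 12 arrays, 0.66 on the log2 scale, was the largest of any member, and its lowest and highest arrays were 4.69-fold apart. Aurka, the spindle pole kinase, ran from 181.6 through 348.4 to 410.7 units in control and from 257.6 through 479 to 781.5 in p190B. Aurkb, the kinase of the chromosomal passenger complex, had medians of 330.2 (control) and 420.8 units (p190B), and Birc5, survivin of the same complex, had medians of 1116 and 1354. Each of these genes had p190B replicate 2 as its highest array and control replicate 2 as its lowest. Bub1b, the BubR1 checkpoint protein, ran from 158.2 through 396.7 to 500.7 units in control and from 315.6 through 516.2 to 755 in p190B. Its partner Bub1 spanned 291 to 766.2 units in control and 446.5 to 1206 in p190B. The kinetochore proteins Cenpe (142.4 to 373.2 units in control, 216.7 to 490.2 in p190B) and Cenpf (322.5 to 784 and 468.8 to 1124) had the same arrays at their ends.

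Genes of spindle motors and of anaphase followed the same order. Ube2c, the ubiquitin-conjugating enzyme of the anaphase-promoting complex, ran from 1289 through a median of 2431 to 3077 units in control and from 1812 through 3213 to 5398 in p190B. Cdc20 ran from 1058 through 2370 to 2864 units in control and from 1395 through 2538 to 3823 in p190B, where replicate 6, not 2, was the highest. Tpx2, which activates Aurora A on the spindle, had medians of 566.4 units in control and 638.3 in p190B. Of the kinesins, Kif20a, which acts in cytokinesis, had medians of 332.8 and 382 units. Kif11, which pushes spindle poles apart, was higher at the control median (461.3) than at the p190B median (443.6), although its p190B mean was higher. Foxm1, a transcription factor of the mitotic wave, stood apart from its class. It ran only from 128 to 241.2 units in control and from 183.8 to 267.3 in p190B, its lowest array was control replicate 3, and its SD of 0.28 was the smallest of the 19 mitotic genes.

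**Figure D2:**
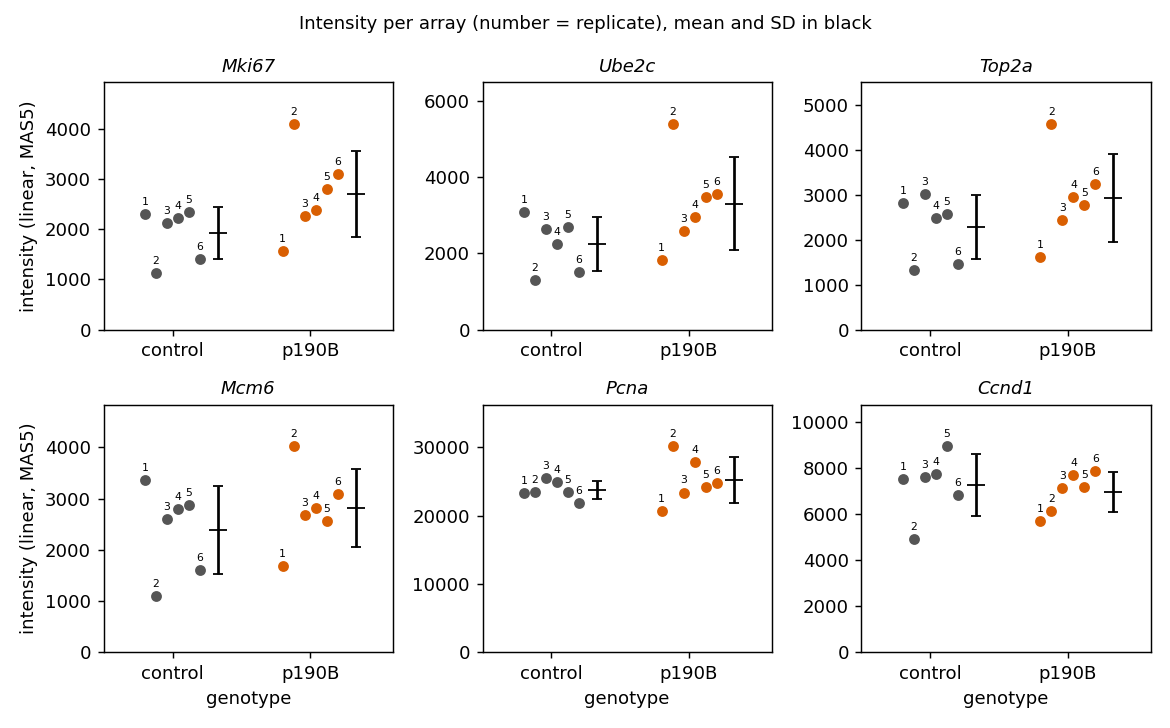
Linear intensity per array (vertical axis, starting at 0) by genotype (horizontal axis) for 6 members, each point labeled with its replicate number, with the mean and SD in black. In Mki67 the control arrays sit between 1121 and 2337 and the p190B arrays between 1562 and 4106, so the groups overlap from 1562 to 2337.

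The S-phase genes split into a variable and a steady set. Rrm2, the small subunit of ribonucleotide reductase, ran from 1077 units through a median of 2610 to 2963 in control and from 1074 through 2665 to 4614 in p190B, an SD of 0.64 over the 12 arrays. Mcm5 ran from 1101 through 2480 to 2653 units in control and from 1237 through 2323 to 3599 in p190B. Mcm6 ran from 1098 through 2696 to 3364 units in control and from 1675 through 2749 to 4022 in p190B. In Mcm5 and Mcm6, whose promoters are printed above, the low arrays were those that were low for the mitotic genes. Mcm2 spanned 617.5 to 1297 units in control and 800.5 to 1426 in p190B, Mcm3 1041 to 1888 and 1004 to 2154, and Mcm7 3763 to 5572 and 3732 to 7816. Their SDs, 0.37, 0.39 and 0.30, were below those of most mitotic genes. Mcm4 varied less (SD 0.23), and its highest array was control replicate 1, at 4716 units.

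Pcna varied little, although p190B replicate 1 was its lowest array and p190B replicate 2 its highest. Tyms showed little of the common pattern. Pcna, the sliding clamp, ran from 21848 through 23453 to 25489 units in control and from 20701 through 24452 to 30184 in p190B, an SD of 0.15 that was the smallest of the 31 members and a range of 1.46-fold. Tyms, thymidylate synthase, was near the filter of 101 units, from 94.8 through 107.3 to 154.9 in control and from 82.1 through 91.1 to 140.9 in p190B. Its low arrays were not those of the other genes, since p190B replicate 1, low for 28 members, held its second highest value.

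Of the G1 cyclins, which act before replication, the cyclin E genes varied about as much as Mcm2 and Mcm3, and cyclin D1 varied less. Ccnd1, cyclin D1, ran from 4925 through 7541 to 8929 units in control and from 5687 through 7144 to 7847 in p190B. All p190B arrays lay within the control range. Ccne1, cyclin E1, spanned 226.7 to 374.1 units in control and 168.9 to 427 in p190B, and Ccne2, cyclin E2, 297.4 to 622.7 and 332.2 to 696.8. Their SDs were 0.23, 0.36 and 0.37 on the log2 scale.

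Mitotic genes swung over a wider range than S-phase genes across the same arrays. The median SD was 0.53 for the 19 mitotic genes, 0.37 for the 9 S-phase genes and 0.36 for the 3 G1 cyclins, against 0.20 for all named genes. The mitotic mean spanned 1.81 log2 units, 3.51-fold, and the S-phase mean 1.09 units, 2.13-fold. Both were lowest in control replicate 2 and highest in p190B replicate 2. The mitotic mean minus the S-phase mean ran from -0.37 (control replicate 2) to 0.05 (control replicate 3) in control. In p190B it ran from -0.11 (replicate 1) to 0.35 (replicate 2). It was above 0 in 5 of 6 p190B arrays and 1 of 6 control arrays, and p190B replicates 2, 5 and 6 lay above every control array. No test was made of this difference, since it is a score over chosen genes.

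**Figure D3:**
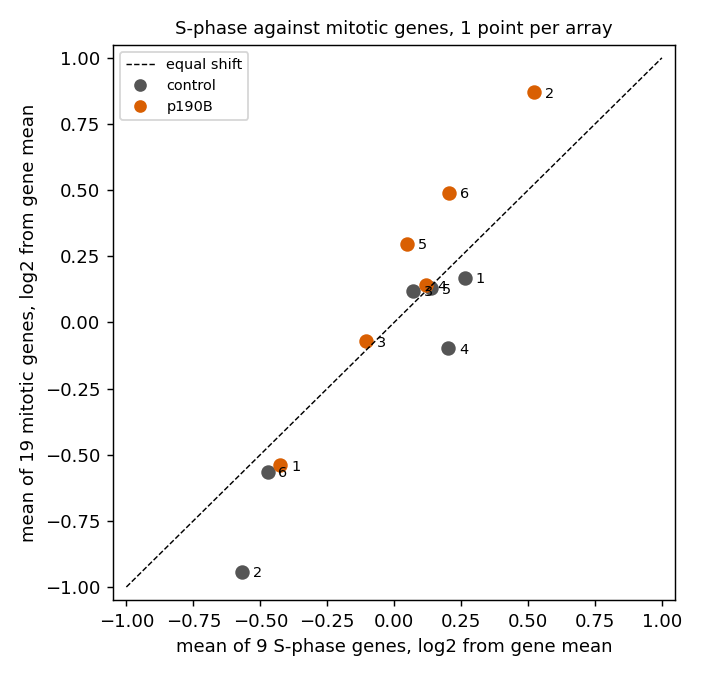
Mean of the 19 mitotic genes (vertical axis) against the mean of the 9 S-phase genes (horizontal axis), each in log2 units from the gene's own mean, with 1 point per array numbered by replicate. The mitotic axis spans 1.81 units and the S-phase axis 1.09, and p190B replicates 2, 5 and 6 lie farthest above the dashed line of equal shift.

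Correlation with Mki67 over the 12 arrays described how tightly each gene kept to the pattern. Of the 30 other members, 23 correlated positively with an adjusted p under 0.05 (permutation test, 100000 resamples, two-sided, Benjamini-Hochberg over all probe sets kept), against 2.15% of named genes. The median Pearson r was 0.93 for the members and 0.07 for named genes. By class the count was 17 of 18 mitotic genes (median r 0.95), 5 of 9 S-phase genes (0.88) and 1 of 3 G1 cyclins (0.54). The highest was Ube2c (r = 0.98, Spearman rho = 0.96, permutation p = 1e-05, the smallest the resampling can give, adjusted p = 0.00751). Ccnb2 and Ccna2 each had r = 0.97. Among S-phase genes Mcm7 and Mcm6 had r = 0.93, Rrm2 0.92, Mcm5 0.90 and Mcm3 0.88, all past the threshold, and Ccne2 was the G1 cyclin that passed, at 0.84. Mcm2 (r = 0.82, permutation test, adjusted p = 0.0506) lay just outside. Pcna, with its small range, had r = 0.69 (permutation test, adjusted p = 0.166). Foxm1 (r = 0.59, permutation test, adjusted p = 0.291) was the mitotic gene that did not pass, and Tyms (r = -0.04) was the only member below 0.

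The relation rested in part on single arrays. Without the 2 arrays farthest from the Mki67 median, control replicate 2 and p190B replicate 2, the median r was 0.85, with 0.91 for the mitotic genes. Over the 9 arrays other than the low set (control replicates 2 and 6 and p190B replicate 1), it was 0.79 for the members, 0.88 for mitotic genes and 0.62 for S-phase genes. Those 9 were chosen after the values were seen. Within genotypes the median r was 0.96 over the 6 control arrays and 0.95 over the 6 p190B arrays. The number of members past the threshold was 12 without control replicate 2 and 15 without p190B replicate 2. Per log2 unit of Mki67, the mitotic genes changed by a median of 1.00 log2 unit, the S-phase genes by 0.61 and the G1 cyclins by 0.39.

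Between genotypes, 28 of 31 cell cycle genes had a higher mean in p190B cells (59.7% of named genes did), but none passed the test. Over all 27022 probe sets kept, limma with Benjamini-Hochberg adjustment called 10 (0.037%), and 0 of 31 members were among them, with adjusted p from 0.526 (Ube2c) to 0.985 (Ccne1). At an unadjusted p under 0.05, limma gave 3 members higher and 0 lower, where 5.22% of named genes were higher. These 3 were Ube2c, Aurka and Mki67. The count depended on single arrays: it was 14 without p190B replicate 1, 5 without control replicate 1, 1 without control replicate 4 or p190B replicate 4, and 0 without control replicate 2 or 6 or p190B replicate 2, 5 or 6. Over all 27022 probe sets kept, 2518 had an unadjusted p under 0.05 in either direction, and 2730 without p190B replicate 1. Ube2c averaged 3297 ± 1212 units in p190B against 2238 ± 706 for control (SD over 6 arrays per group), so that the log2 difference was 0.54 (SE 0.25, limma 95% interval 0.01 to 1.08). Aurka averaged 492 ± 176 and 334 ± 85.5 units, a difference of 0.51 (SE 0.24, 0.00 to 1.01). Mki67 averaged 2702 ± 865 and 1917 ± 521 units, a difference of 0.48 (SE 0.23, 0.00 to 0.96), with an exact two-sided permutation p = 0.102 over 924 assignments. The differences were about as large as the spread between arrays of a genotype, whose SD on the log2 scale was 0.46 for Mki67.

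Mitotic genes had larger differences than S-phase genes. All 19 mitotic genes were above 0, with a median of 0.40, from 0.22 for Kif11 (limma 95% interval -0.29 to 0.72) to 0.54 for Ube2c. Of the 9 S-phase genes 8 were above 0, with a median of 0.12, from -0.10 for Tyms (-0.46 to 0.26) to 0.28 for Mcm6 (-0.27 to 0.83). The median was 0.16 without Pcna and Tyms. The G1 cyclins had a median of -0.02, with Ccnd1 at -0.05 (-0.31 to 0.21), Ccne1 at -0.02 (-0.44 to 0.40) and Ccne2 at 0.10 (-0.32 to 0.52). The median over all members was 0.31 and over all named genes 0.03. As the genes vary together, the count of genes above 0 does not stand for that many separate observations. The intervals of most mitotic genes reached from slightly below 0 to near 1 log2 unit.

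**Figure D4:**
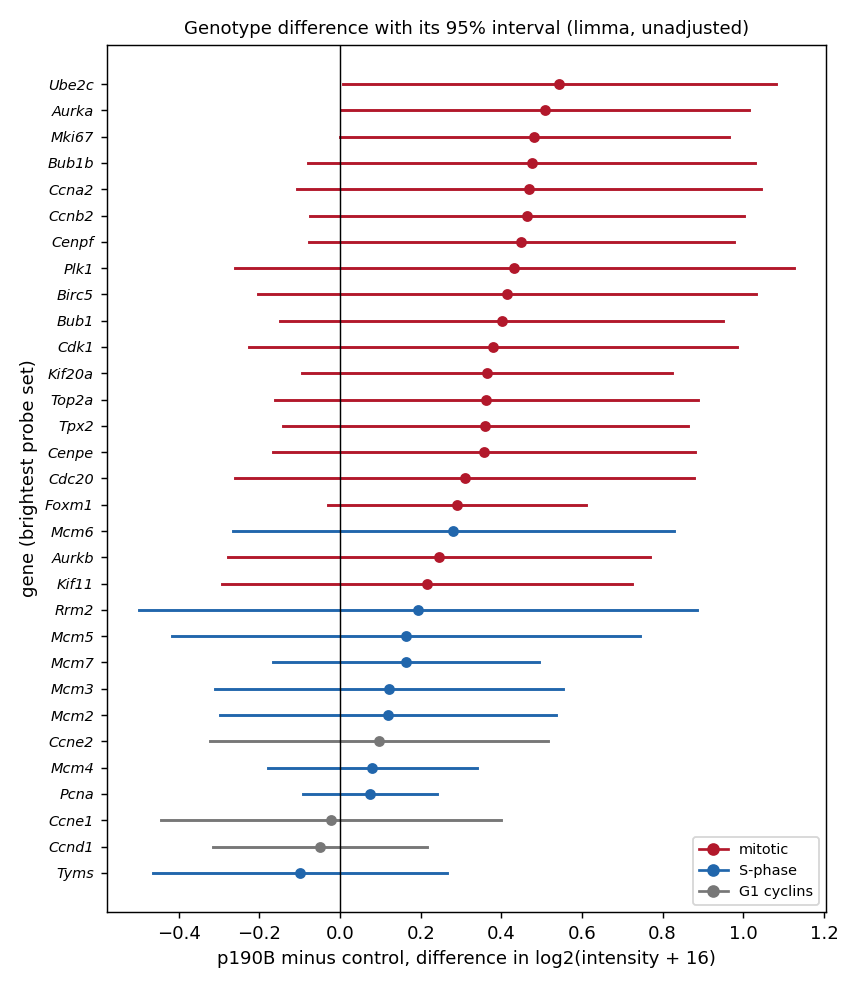
Difference in log2(intensity + 16), p190B minus control (horizontal axis), for each of the 31 genes (vertical axis), with limma's unadjusted 95% interval as a bar and color giving the class. The 19 mitotic genes lie between 0.22 and 0.54 and the S-phase genes between -0.10 and 0.28, and most intervals cross 0.

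The size of these differences depended on individual arrays and on RNA quality measures. The mitotic median was 0.25 without control replicate 2 and also without p190B replicate 2, and 0.58 without p190B replicate 1. The S-phase median was 0.01 without control replicate 2 and 0.26 without p190B replicate 1. The log2 ratio of 3′ to 5′ probe sets, a measure of RNA integrity and labeling, averaged 0.29 in control and 0.40 in p190B for Actb, and -0.49 and -0.40 for Gapdh, with the highest Actb ratios in p190B replicates 1 (0.48) and 3 (0.59). With the Actb ratio as a covariate the mitotic median was 0.78 and the S-phase median 0.37. Of 31 members, 19 then had an unadjusted limma p under 0.05, with 0 past adjustment (smallest adjusted p = 0.287). Over all 27022 probe sets kept, 3394 then had an unadjusted limma p under 0.05 in either direction, against 2518 without the covariate. The Actb ratio ran from 0.25 to 0.29 in control apart from replicate 2 (0.35), and from 0.31 to 0.59 in p190B. It thus nearly separated the genotypes, and its part and that of genotype can hardly be told apart. Without p190B replicates 1 and 3 the mitotic and S-phase medians were 0.64 and 0.32. There 18 members had an unadjusted limma p under 0.05, as did 3229 of all 27022 probe sets kept. Of the members, 0 passed adjustment (smallest adjusted p = 0.236). With the Gapdh ratio as a covariate they were 0.69 and 0.32. That ratio ran from -0.52 to -0.47 in control and from -0.48 to -0.32 in p190B, so it nearly separated the genotypes, and its part and that of genotype can hardly be told apart. With the mean of the macrophage markers as a covariate the medians were 0.26 and 0.02.

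A further 24 kept probe sets read 17 of the members a second time or more. Of these, 20 had a difference above 0 and 4 below, from -0.21 for 1 of Mcm4 to 0.48 for 1 of Tpx2. Their median r with the brightest probe set of the same gene was 0.86, and the lowest was 0.35, for Mcm4. In 5 cases the sign was opposite to that of the brightest probe set, for example Mcm6 (0.28 and -0.09), Ccne1 (-0.02 and 0.26) and Ccnd1 (-0.05 and 0.12). Mcm4 (0.08 and -0.21) and Mcm7 (0.16 and -0.02) were the others, so no direction could be given for these genes. Reading each gene by its brightest probe set whose name carries no shared-sequence suffix gave an S-phase median of 0.23 and a mitotic median of 0.42.

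Genes around the members in the same pathway gave a like pattern, again with 0 called in each list by limma. Of 27 other replication genes, 26 were above 0 (59.7% of named genes were), with a median of 0.13. At an unadjusted limma p under 0.05, 1 was higher, not above the 5.22% of named genes. Mcm10, which helps activate the MCM helicase, averaged 355 ± 95.2 units in p190B and 233 ± 50.3 in control, a log2 difference of 0.57 (SE 0.18, limma adjusted p = 0.346). Orc1, of the origin recognition complex, differed by 0.45 (SE 0.21, limma adjusted p = 0.543). Of 37 other mitotic genes, 34 were above 0, with a median of 0.26. At an unadjusted limma p under 0.05, 1 was higher, again not above the share of named genes. Hmmr, a spindle-associated hyaluronan receptor, averaged 692 ± 250 and 459 ± 145 units, a difference of 0.56 (SE 0.24, limma adjusted p = 0.488), and its 3 other probe sets gave 0.37 to 0.46. Tacc3, which stabilizes spindle microtubules, differed by 0.40 (SE 0.20), with 5 of 6 p190B arrays above every control array. In these wider lists too, the mitotic median was above the replication median.

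Regulators of the cycle showed no common direction (59.7% of named genes were above 0). Of 11 further cyclins, cyclin-dependent kinases and CDC25 phosphatases 6 were above 0 (median 0.04). The smallest p was that of Cdc25b, a phosphatase that activates cyclin-dependent kinases. It averaged 336 ± 48.2 units in p190B and 253 ± 41.7 in control, a difference of 0.39 (SE 0.13, limma adjusted p = 0.396). Cdk7, the kinase that activates other cyclin-dependent kinases, differed by -0.12 (SE 0.07), and its other probe sets gave -0.20 to 0.06. Of 7 inhibitors of these kinases 3 were above 0 (median -0.02). Cdkn1a, p21, averaged 11433 ± 804 and 12975 ± 1077 units, a difference of -0.18 (SE 0.06, limma adjusted p = 0.406), and its other probe set gave 0.21. Cdkn2c, p18, differed by 0.17 (SE 0.09).

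Of 18 genes of the RB, E2F and DREAM group, which carries the transcriptional program described above, 14 were above 0 (median 0.11, 59.7% of named genes). At an unadjusted limma p under 0.05, 1 was higher and 1 lower, where 5.22% of named genes were higher. E2f5, a repressive E2F, averaged 1847 ± 197 units in p190B and 2199 ± 120 in control, a difference of -0.25 (SE 0.08, limma adjusted p = 0.312), but its other probe sets gave -0.07 and 0.76. Mybl2, B-MYB itself, averaged 189 ± 33.9 and 141 ± 34 units, a difference of 0.39 (SE 0.16, limma adjusted p = 0.466).

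The genes whose levels followed the member mean most closely were sought among 12739 other named genes, by Pearson r over the 12 arrays and with no test. Pbk, a mitotic kinase, and Pclaf, a PCNA-binding protein, each had r = 0.99. Stmn1, stathmin, which destabilizes microtubules, also had r = 0.99 and ran from 9048 to 19208 units. They were followed by Cep55, of the midbody, H2ax, a histone variant, and Smc2, of condensin, each at 0.98. Arhgap11a, a RhoGAP of cytokinesis, had r = 0.98, and Prc1, which bundles midzone microtubules, Aspm, of spindle poles, and Trip13, of checkpoint silencing, had 0.97. Of these 10, 4 stood in the pathway lists, and 24 of the top 50 stood in a pathway or marker list. The share of all compared genes in such a list was not counted. The most opposite genes were Tmtc2 and Map3k2 (r = -0.93 each), Ccdc62 (-0.92), Sphk1, a sphingosine kinase (-0.91), and Arntl2, a clock transcription factor (-0.90). Sphk1 ran from 4070 to 7631 units. All these points share the arrays and their scaling.

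Markers of cell types were set beside the cell cycle genes over the arrays, and their part in the pattern was not tested. Mki67 was set against the mean log2 level of 9 marker lists and both 3′ to 5′ ratios, 11 relations in all, adjusted by Benjamini-Hochberg. Basal markers were lower where Mki67 was higher, with r = -0.77 (permutation p = 0.00357, adjusted 0.0393), although rho was -0.66 (permutation p = 0.0216, adjusted 0.237) and r without the 2 farthest arrays was -0.51. Within genotypes r was -0.78 in control and -0.76 in p190B. The summed level of the 10 basal markers ran from 66690 to 86970 units in control and from 73373 to 84053 in p190B. Luminal markers gave r = -0.60 and rho = -0.41 (permutation p = 0.0401 and 0.192, adjusted 0.220 and 0.536), with -0.81 within control and -0.86 within p190B. The summed level of the 14 that were read ran from 209336 to 267020 units in control and from 232819 to 256591 in p190B.

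No relation with markers outside the epithelium passed adjustment. Endothelial markers, 8 of 8 read, gave r = 0.52 and rho = 0.30 (permutation p = 0.0869 and 0.341, adjusted 0.227 and 0.536). Their r was 0.78 without the 2 farthest arrays, 0.92 within control and 0.32 within p190B, and their summed level ran from 28578 to 44626 units in control and 28886 to 43767 in p190B. Macrophage markers gave r = 0.50 over all arrays, 0.12 within control and 0.75 within p190B. T and NK cell markers gave 0.41, with 0.10 and 0.71 within control and p190B, and B and plasma cell markers 0.49, with 0.34 and 0.70. Fibroblast markers gave 0.30 (0.25 and 0.27 within control and p190B). Adipocyte markers gave 0.11 over all arrays but 0.71 within control and -0.61 within p190B, and skeletal muscle markers 0.02, with 0.44 and -0.31. Whether these relations differ between genotypes was not tested. The summed T and NK level spanned 4663 to 16810 units in control and 3248 to 16669 in p190B, and that of B and plasma cells 1491 to 11420 and 1173 to 12914. These lymphocyte levels were lowest in p190B replicate 1, which was low for the cell cycle genes, but control replicate 5, with a member mean of 0.14, was next lowest. Macrophage sums ran from 62309 to 97297 units in control and 70003 to 96045 in p190B. The Actb ratio gave r = -0.08 over all arrays, -0.77 within control and -0.57 within p190B. The Gapdh ratio gave 0.23 over all arrays, 0.60 within control and -0.56 within p190B. No test was made of these relations within a genotype. No marker that was read had an intensity of 0.

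**Figure D5:**
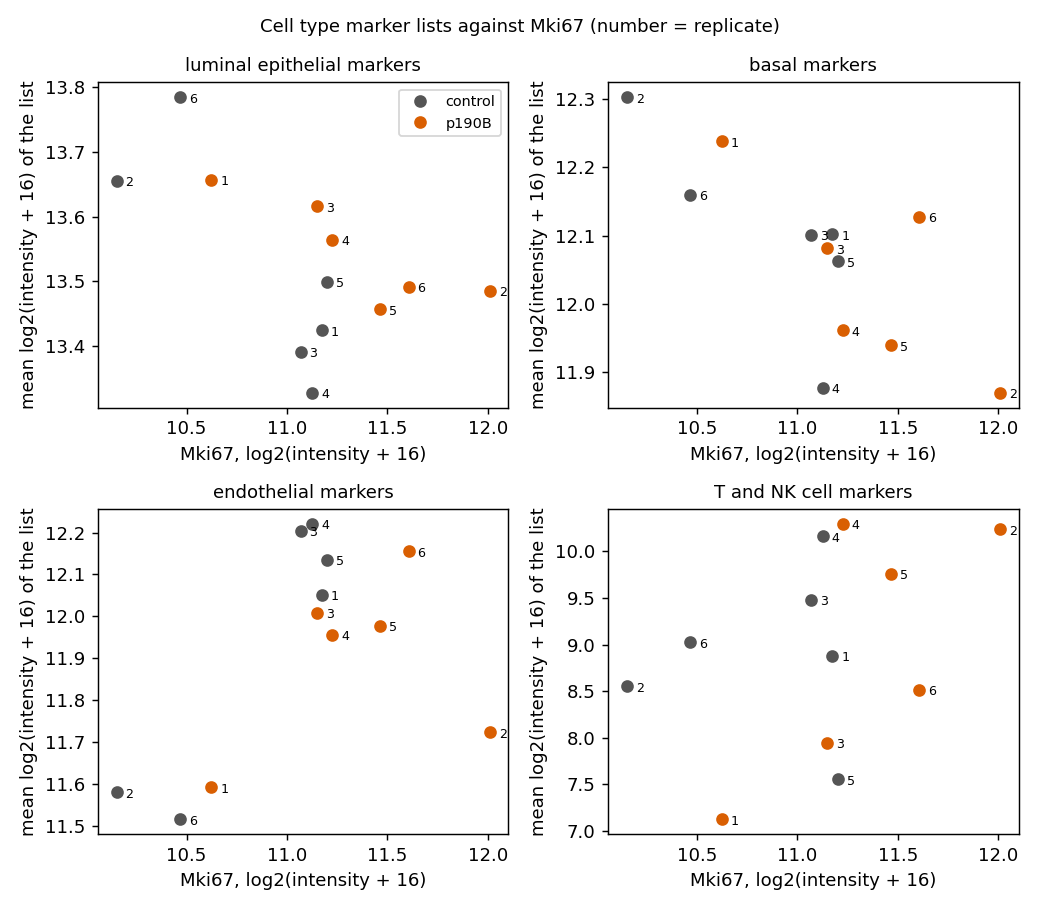
Mean log2(intensity + 16) of cell type marker lists (vertical axes) against Mki67 on the same scale (horizontal axes), with 1 point per array numbered by replicate and colored by genotype. Basal (r = -0.77) and luminal markers (r = -0.60) lie lower where Mki67 is higher. Endothelial (r = 0.52) and T and NK cell markers (r = 0.41) gave a positive r. Only the basal Pearson r passed adjustment.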

How the data were processed

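RNA of 12 mammary epithelial preparations, 6 per genotype, was hybridised to single-color Affymetrix arrays, per the labels' protocols. The deposited table gives 1 linear intensity per probe set and array. The authors made these values with MAS5, per the submitters' processing notes. The MAS5 version, the target of its scaling and any batch or scan date were not given in the sources used here. The equal trimmed means show that the arrays had been scaled alike, though the shapes of their distributions can still differ. Dim MAS5 values are noisy, and precision is limited by having 6 arrays per group.

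Groups came from sample titles. Of 45037 probe sets other than controls, 34945 had 1 symbol, 932 several and 9160 none here. Intensities were used as log2(value + 16), a scale on which folds of dim genes come out too small. Probe sets with a mean at or above the 40th percentile (101 intensity units) were kept, which left 27022. The genotype comparison used limma 3.58.1 (R 4.3.3), fitting lmFit and then eBayes with a mean trend. Its two-sided p-values were adjusted by Benjamini-Hochberg over all kept probe sets, and 0.05 was the threshold. This step and the correlation step were tested on simulated data. Correlations, exact permutations and motif searches used Python 3.11.15 with scipy 1.17.1.

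The members, the pathway and marker lists, the tests and most alternatives were chosen with earlier results of these data known. All members are described. The values of 1 pathway list are not reported here. From each other pathway list the genes past the threshold were to be named, otherwise the 2 with the smallest unadjusted p. Of other genes, the 10 most like and the 5 most unlike the member mean are named. The promoter of Ccnb2 was printed in place of that of Ccnb1, which had no probe set annotated with exactly 1 symbol. This choice was made after the values were seen. Alternatives were other pseudocounts, filters, scalings, moderation, array weights, a replicate block, covariates, probe set choices, thresholds and leaving out arrays. The S-phase median without Pcna and Tyms was added after the values were seen.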

Additional observations from a re-analysis of the deposited data

Results flagged for a closer look

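In the control group, 2 spindle genes had 1 array far below the other 5, each time control replicate 2. Aurka read at 181.6 units there and between 307.9 and 410.7 in the other control arrays. Bub1b read at 158.2 units there and between 330.2 and 500.7 in the others. Of 68 groups of 6 arrays examined in this way, 2 stood out, not more than the share of about 1 in 20 that chance would mark. Both come from the same array, so they are not 2 separate observations.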

How the results depend on the processing

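In the limma fits the count of members called between genotypes was 0 under every alternative run, with an adjusted p threshold of 0.10 too. At an unadjusted p under 0.05 it was 3 as reported, 0 with the 60th percentile filter, without trend, with the replicate block and with the macrophage covariate, and 19 with the Actb ratio, and leaving out 1 array gave 0 to 14. Over all probe sets kept, the unadjusted count was 2518 as reported and 3394 with the Actb ratio. The count of probe sets called, 10 as reported, was 5 without the filter, 17 with a 60th percentile filter, 28 after quantile normalization (8 higher, against 1 of 10 as reported), 4 with equal medians and 3 without trend. It was 19 with array weights, 1 when the Actb ratio was a covariate, 0 when the Gapdh ratio was (1802 at an unadjusted p under 0.05), 16 with the lymphocyte markers, 4 with the macrophage markers, 5 without p190B replicates 1 and 3, and 24 at an adjusted p under 0.10. Leaving out 1 array gave 4 to 9. The cause was not tested for any of these. With the replicate number as a block limma called 0 probe sets (2287 at an unadjusted p under 0.05). Deviations of same-numbered arrays from their group means correlated between -0.29 and 0.41, and only number 4 was best matched by its own number, so the numbers were not taken to pair arrays.

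Leaving out 1 array moved the median difference from 0.19 to 0.47 over the members, from 0.01 to 0.26 over S-phase genes and from 0.25 to 0.58 over mitotic genes. It moved the range of the member mean from 1.15 to 1.50, and the count of members correlated with Mki67, 23 as reported, from 12 to 23. The mitotic median was above the S-phase median in 27 of 27 alternatives, by 0.19 to 0.41 (0.28 as reported). The filter settings and the replicate block could not change this gap (0.28 in each). All alternatives reuse the same arrays, so this count does not stand for separate observations. Of 895 values for single members under alternatives, 0 passed the threshold and 19 had the opposite sign, over Ccnd1, Ccne1, Ccne2, Mcm2, Mcm4 and Tyms.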

Other observations

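The transgene's own gene was set against Mki67 over the 12 arrays. The brightest Arhgap5 probe set gave a Pearson r of -0.78 and a Spearman rho of -0.78 (permutation test, adjusted p = 0.0672 over all probe sets kept). It gave -0.76 without control replicate 2 and p190B replicate 2, -0.59 within the 6 control arrays and -0.86 within the 6 p190B arrays. The other Arhgap5 probe sets gave 0.30, -0.46 and -0.40 (permutation test, adjusted p = 0.670, 0.445 and 0.535). Over the 12 arrays the 4 probe sets of this gene thus did not share a sign. Without the same 2 arrays these other probe sets gave 0.03, -0.40 and -0.08. Within p190B they gave -0.55, -0.74 and -0.60, and within control 0.15, 0.21 and -0.49. The relations within a genotype were not tested.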
